A study of Mus musculus with 38 samples.

Results

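Bulge stem cells sorted from nevus skin at postnatal day 56 (P56) were compared with bulge stem cells sorted from normal skin at P30, when normal hair follicles are in anagen, the growing phase of the hair cycle. The genes described are protein-coding genes that reached 1 FPKM (a level corrected for the length of the transcript and the size of the library) in at least 2 of the 4 libraries compared and that do not lie on chromosome X or Y. There were 11434 such genes among the 20224 in the bulge table. Of these, 10605 reached 1 FPKM in all 4 libraries, 200 did so only in both nevus libraries, and 113 only in both wild-type libraries. Another 4367 protein-coding genes stayed below the limit, and 351 on X or Y that passed it were left out.

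The bulge is the niche in the upper follicle that holds the hair follicle stem cells. These cells are quiescent through telogen, the resting phase, and divide briefly when a new hair cycle starts. In anagen their descendants build the outer root sheath, the inner root sheath and the hair shaft below. In the nevus model, *Nras* carrying the Q61K change is expressed from the tyrosinase promoter (Tyr-NrasQ61K), so that the transgene acts in melanocytes, the pigment cells, and not in the keratinocytes sorted here. The mice serve as a model of the congenital form of hairy nevus, a patch of skin rich in melanocytes and in hair.

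The bulge table holds 8 of the 38 libraries of the series, 2 in each of 4 groups. All mice carried K14-H2B-GFP, a green fluorescent histone in basal keratinocytes, and bulge cells were sorted as GFP-positive, CD34-positive and P-cadherin-low. The 2 libraries of mutant (Tyr-NrasQ61K;K14-H2B-GFP) bulge at P56 were compared with the 2 of wild-type (K14-H2B-GFP alone) bulge at P30. The mutant bulge at P30 and the wild-type bulge at P56, the latter in telogen, served to place each gene. Genotype and age differ together in the main comparison, and so does sex as read from X- and Y-linked transcripts in the libraries. Their parts cannot be told apart. The wild-type groups also differ from each other in age and in these transcripts, so hair cycle phase cannot be told apart from them. Each value is of bulk RNA, in which fewer cells of a type and less RNA per cell cannot be told apart. The study described nevus skin as a mixture of anagen and telogen follicles. A level between those of the wild-type groups therefore does not show the state of single cells.

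All 8 libraries were alike in their summed level, between 677457 and 738064 FPKM, and 12174 to 12731 genes reached 1 FPKM in each. *Apoe*, the apolipoprotein E gene, was the most abundant transcript in the 6 libraries other than wild-type P56. The number of reads behind each value is not known from these files. Log2 levels of the 2 wild-type P30 libraries correlated with r = 0.992 across genes, and those of the 2 mutant P56 libraries with r = 0.972, so the nevus group varied more within itself. The 20 bulge stem cell markers listed were all detected, with *Krt14*, a basal keratinocyte keratin, at 12499 and 11712 FPKM in wild-type P30 and 11667 and 10246 in mutant P56. *Cd34* and *Krt15* stood at 34.9 FPKM or more and 2248 FPKM or more in every one of these 4 libraries.

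Few genes passed the test between mutant P56 and anagen bulge cells. With 2 libraries a group, a gene that did not pass was not shown to be unchanged. With limma on log2(FPKM + 1) and Benjamini-Hochberg adjustment over all 13263 genes fitted, 53 of the 11434 genes were higher (0.464%) and 31 were lower (0.271%) at an adjusted p under 0.05 and a change of at least 1 on the log2 scale. Over all genes fitted, with X, Y and non-coding genes included, 98 passed (0.739%). The 53 rises ran from 1.10 to 5.01 with a median of 1.71, and the 31 falls from -1.06 to -4.44 with a median of -1.54. The groups did not overlap for any of the 84 genes. Non-overlap alone was common with 2 libraries a group: both mutant libraries lay above both wild-type libraries in 36.4% of the genes and below them in 17.3%. The median log2 change of all 11434 genes was 0.097, with 61.9% above 0.

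**Figure D1:**
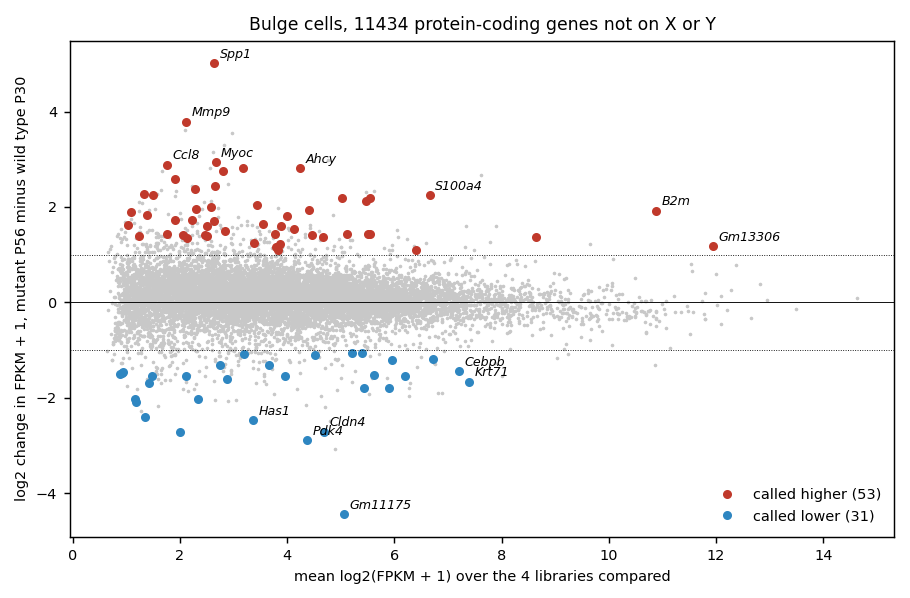
Log2 change in FPKM + 1 (mutant P56 minus wild-type P30, vertical axis) against the mean log2(FPKM + 1) of the 4 libraries (horizontal axis) for 11434 genes. Red points are the 53 genes called higher and blue points the 31 called lower, dotted lines mark a change of 1, and *Spp1* at 5.01 and *Gm11175* at -4.44 lie farthest from 0.

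The number of genes passing the test depended on which libraries entered the fit. With only the 4 libraries compared, 23 genes were higher and 12 lower. Leaving out wild-type P30 replicate 1 or replicate 2 left 2 higher and 2 lower in each case, leaving out mutant P56 replicate 1 gave 46 and 47, and leaving out mutant P56 replicate 2 gave 35 and 12. *Myoc*, *2210418O10Rik*, *Pdk4* and *Cldn4* passed in all 4 of these fits. In contrast, 27 of the 53 higher genes and 14 of the 31 lower genes passed in none of them. Of the genes described below, *Ccl8*, *Ahcy*, *Akr1c18*, *Emp3*, *Cck*, *Has1* and *Gm11175* passed in 2 of the 4, *Spp1*, *Cxcl9*, *S100a4*, *H2-Q7*, *B2m*, *Krt25*, *Krt27*, *Krt71* and *Adm* in 1, and *Mmp9*, *Mmp13*, *H2-Q6*, *Col6a1*, *Wif1*, *Cldn3*, *F3* and *Guca2a* in 0. The counts also moved when libraries of the other 2 groups were left out: without mutant P30 replicate 1 or replicate 2 the counts were 19 and 6, without wild-type P56 replicate 1 they were 115 and 82, and without wild-type P56 replicate 2 they were 116 and 82. Rescaling each library by its median log2 ratio gave 46 higher and 50 lower genes, so the split between directions also depended on scaling. The statements that follow give the levels in each library because the calls depended on the fit. Not every gene described below is in the list given here. *Tmem158*, *Slpi*, *Cebpb*, *Sprr1b*, *Krt42* and *Sox13* are among those left out of it.

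The largest rise was in *Spp1* (chr5:104435118-104441050, plus strand), which encodes osteopontin, a secreted matrix glycoprotein that binds CD44 and integrins. *Spp1* was listed at 0.1 FPKM, the lowest value in the table, in both wild-type P30 libraries, and at 67.7 and 17.3 FPKM in the 2 mutant P56 libraries. Its log2 change was 5.01 ± 0.75 (SE, limma adjusted p = 0.0277), a size that depends on the pseudocount because the wild-type values lie at that lowest level. With a pseudocount of 5 it was 2.98 (adjusted p = 0.101), and with only the 4 libraries the adjusted p was 0.0634. In mutant P30 bulge it was higher still, at 109 and 489 FPKM, and in wild-type P56 bulge it was at 1.05 and 0.1 FPKM. Both nevus groups thus lay above both wild-type groups, at either age, although the 2 mutant P56 libraries were far apart. Against wild-type P56 the log2 change was 4.56 (adjusted p = 0.00429), and between the genotypes at P30 it was 7.72 (adjusted p = 0.00384). The study placed *Spp1* in nevus melanocytes beside the bulge and, in normal skin, mostly in fibroblasts of the follicle's dermal papilla. Fibroblast markers, summed below, were also highest in mutant P30, at 509 and 657 FPKM. The cell source of the *Spp1* RNA in these libraries was not tested.

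The receptors of osteopontin moved far less than the ligand. *Cd44*, a cell-surface receptor of osteopontin and hyaluronan, was at 69.4 and 65.6 FPKM in wild-type P30 and at 101 and 92.6 in mutant P56. Both nevus libraries lay above both wild-type ones, but the log2 change of 0.52 ± 0.17 did not pass the test (limma adjusted p = 0.206). Of the 7 measured genes on the list of osteopontin and its receptors, *Spp1* alone passed, and the median change was 0.43. The integrin subunits on it ranged from *Itgav* at -0.16 to *Itgb8* at 0.72.

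Matrix metalloproteinases, secreted enzymes that cleave extracellular matrix, supplied a second pair of genes near zero in the wild type. *Mmp9* (chr2:164940780-164955850, plus strand), a gelatinase that also cleaves CD44 and osteopontin, was at 0.2 and 0.13 FPKM in wild-type P30 and at 17 and 13.4 FPKM in mutant P56. *Mmp13* (chr9:7272514-7283331, plus strand), a collagenase, was at 0.14 FPKM in both wild-type libraries and at 5.34 and 3.77 in mutant P56. The groups were far apart in both genes, with log2 changes of 3.79 ± 0.55 (limma adjusted p = 0.0261) and 2.27 ± 0.36 (adjusted p = 0.0359). *Mmp9* reached 46 and 115 FPKM in mutant P30, against 3.57 and 0.4 in wild-type P56. *Mmp13* reached 16.8 and 39.7 FPKM in mutant P30, against 0.1 and 0.14 in wild-type P56. As with *Spp1*, the younger nevus bulge held the highest levels. Of the 16 measured matrix proteases these were the 2 that passed, both higher, and the median change of the list was 0.40. The presenilin, nicastrin and sheddase genes of the CD44 cleavage list did not pass: its 10 measured genes had a median of 0.17, and *Mmp9* was the one called. With 1 of the 4 compared libraries left out, *Mmp9* and *Mmp13* passed in 0 of the 4 fits and *Spp1* in 1. With a pseudocount of 5 neither metalloproteinase passed (adjusted p = 0.0609 and 0.198), and after rescaling *Mmp13* did not (adjusted p = 0.0638).

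Chemokines and interferon-related genes formed the next group. *Ccl8* (chr11:82115185-82116799), a chemokine that draws monocytes and T cells, was at 0.1 and 0.4 FPKM in wild-type P30 and at 5.99 and 11.1 in mutant P56. *Cxcl9* (chr5:92321347-92328079, minus strand), an interferon-gamma-induced ligand of CXCR3, was at 0.62 and 0.47 FPKM in wild-type P30 and at 6.64 and 10.1 in mutant P56. Both were low in wild-type P56 (0.41 and 1.19 FPKM for *Ccl8*, 1.59 and 0.7 for *Cxcl9*) and raised in mutant P30 (7.66 and 6.23, and 4.02 and 8.36). The log2 changes were 2.89 ± 0.33 (limma adjusted p = 0.00955) and 2.58 ± 0.35 (adjusted p = 0.0221). No other gene of the 13 measured chemokines passed, and their median change was 0.27.

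*Cxcl9* was also the single gene called among the 17 measured genes of the interferon response, although 15 of them had a positive change and the median was 1.2 against 0.097 over all genes. In 12 of the 17 both mutant P56 libraries lay above both wild-type P30 libraries, against 36.4% of all genes, and in 1 below. The 2 mutant P56 libraries still differed widely in some of them. *Oas1a*, an antiviral sensor, was at 0.94 and 0.56 FPKM in wild-type P30 and at 1.27 and 28.1 in mutant P56. *Isg15*, a ubiquitin-like interferon target, was at 5.4 and 5.91 FPKM in wild-type P30 and at 4.59 and 49.3 in mutant P56. Mutant P56 replicate 2 was far above all wild-type P30 values in both genes, while replicate 1 was close to them. *Oas1a* changed by 2.22 ± 0.91 (limma adjusted p = 0.291) and *Isg15* by 1.33 ± 0.81 (adjusted p = 0.476). The interferon list summed to 574 and 1038 FPKM in the 2 mutant P56 libraries, against 393 and 376 in wild-type P30.

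MHC class I genes, which present peptides at the cell surface, were more even between the nevus libraries. The list was assembled after *B2m*, *H2-Q6* and *H2-Q7* had been seen among the called genes, so its count is a description. *B2m* (chr2:122147686-122153083, plus strand), the light chain shared by class I molecules, was at 962 and 964 FPKM in wild-type P30 and at 2892 and 4619 in mutant P56. The ratio of the means was 3.90, with a log2 change of 1.92 ± 0.30 (limma adjusted p = 0.0351). The call was lost after rescaling (adjusted p = 0.084), with only the 4 libraries (adjusted p = 0.0634), and without wild-type P30 replicate 1 or 2 (adjusted p = 0.242 and 0.246) or mutant P56 replicate 2 (adjusted p = 0.112). *H2-Q6* was at 12.4 and 16.4 FPKM in wild-type P30 and at 64 and 73.3 in mutant P56, and *H2-Q7* at 22.2 and 19.9 against 93.2 and 105. These paralogs on chromosome 17 are near copies whose reads could be split between them, so each single value is uncertain. All 12 measured class I genes had a positive change, from 0.81 to 2.19 with a median of 1.24. Both mutant P56 libraries lay above both wild-type P30 libraries in each, against 36.4% of all genes. The 3 named here were the ones called. The classical heavy chains *H2-K1* and *H2-D1* changed by 1.27 ± 0.30 (adjusted p = 0.0985) and 1.22 ± 0.25 (adjusted p = 0.0753). Wild-type P56 bulge was also above wild-type P30, with *B2m* at 2318 and 1518 FPKM, and against that group *B2m* did not pass (log2 change 0.96, adjusted p = 0.0625). Among 10 genes of peptide loading none was called and the median was 0.65, led by *Nlrc5*, the class I transactivator, at 1.64 ± 0.34 (adjusted p = 0.0743).

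The promoter sequences of 6 of these genes are printed as examples of the matrix, chemokine and class I groups, chosen with their motif matches known. Each is the 250 bases before the transcription start in RefSeq (build GRCm38.p6), read 5′ to 3′ on the gene's strand, with motif letters in capitals. The regions are chr5:104434861-104435110 (plus) for *Spp1*, chr9:7272264-7272513 (plus) for *Mmp13*, chr11:82114935-82115184 (plus) for *Ccl8*, chr5:92328080-92328329 (minus) for *Cxcl9*, chr17:35424600-35424849 (plus) for *H2-Q6* and chr2:122147437-122147686 (plus) for *B2m*.
Spp1: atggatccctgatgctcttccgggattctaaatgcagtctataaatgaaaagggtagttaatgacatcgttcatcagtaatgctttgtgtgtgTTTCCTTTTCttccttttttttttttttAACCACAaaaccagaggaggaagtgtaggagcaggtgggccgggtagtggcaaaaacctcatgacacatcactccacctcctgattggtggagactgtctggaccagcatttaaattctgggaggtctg
Mmp13: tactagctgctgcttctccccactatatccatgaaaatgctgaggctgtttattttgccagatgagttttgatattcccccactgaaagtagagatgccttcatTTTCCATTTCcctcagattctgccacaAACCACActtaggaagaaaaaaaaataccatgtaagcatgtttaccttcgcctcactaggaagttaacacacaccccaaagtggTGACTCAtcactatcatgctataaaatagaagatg
Ccl8: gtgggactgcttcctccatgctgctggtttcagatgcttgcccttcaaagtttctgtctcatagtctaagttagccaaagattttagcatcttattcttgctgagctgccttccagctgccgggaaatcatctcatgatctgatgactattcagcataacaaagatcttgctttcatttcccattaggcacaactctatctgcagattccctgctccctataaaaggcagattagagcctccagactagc
Cxcl9: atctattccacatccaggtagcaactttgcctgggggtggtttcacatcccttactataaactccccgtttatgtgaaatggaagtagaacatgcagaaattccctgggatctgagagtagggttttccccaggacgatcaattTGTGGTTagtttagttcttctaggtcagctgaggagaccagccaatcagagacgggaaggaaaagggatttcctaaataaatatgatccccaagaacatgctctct
H2-Q6: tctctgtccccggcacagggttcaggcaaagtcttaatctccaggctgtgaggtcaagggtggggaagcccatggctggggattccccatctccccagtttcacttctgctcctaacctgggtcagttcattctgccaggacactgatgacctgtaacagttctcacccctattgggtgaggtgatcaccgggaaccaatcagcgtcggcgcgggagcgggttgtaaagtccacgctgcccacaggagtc
B2m: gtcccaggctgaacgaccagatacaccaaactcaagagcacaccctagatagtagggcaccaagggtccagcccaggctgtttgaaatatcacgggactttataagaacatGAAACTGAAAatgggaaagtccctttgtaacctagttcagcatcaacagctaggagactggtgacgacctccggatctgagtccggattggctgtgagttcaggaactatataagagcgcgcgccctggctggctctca
Motifs were searched on both strands: AP-1 (TGANTCA), RUNX (TGTGGTT or AACCACA) and the interferon response element (GAAANNGAAA or TTTCNNTTTC). *Mmp13* held all 3, beginning at -35, -119 and -146 from the start. *Spp1* held a RUNX match at -129 and an interferon-element match at -157, *Cxcl9* a RUNX match at -106, and *B2m* an interferon-element match at -139. *Ccl8* and *H2-Q6* held none of the 3, nor did *H2-Q7* and *Krt71*. The search took these exact letters only, so a promoter without a match may still hold a variant of an element. No matches overlapped. Of 27025 RefSeq promoters, 6.85% held the AP-1 letters, 4.46% the RUNX letters and 3.05% the interferon letters. Among the 8643 of them that belong to the genes compared, the shares were 4.25%, 2.90% and 2.41%. A promoter was found for 45 of the 53 higher and 23 of the 31 lower genes. Among the 45, 6 held AP-1, 5 RUNX and 3 the interferon element. Among the 23, 4 held AP-1, 0 RUNX and 2 the interferon element. A match of letters is not evidence of binding.

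*Ahcy*, which encodes the S-adenosylhomocysteine hydrolase of the methionine cycle, was low in both wild-type groups and high in both nevus groups. It lies at chr2:155059310-155074497 on the minus strand. Its level was 5.97 and 6.3 FPKM in wild-type P30, 36.1 and 66.9 in mutant P56, 51.2 and 41.9 in mutant P30, and 1.85 and 1.19 in wild-type P56. The log2 change was 2.82 ± 0.29 (limma adjusted p = 0.0063), and against wild-type P56 it was 4.33 (adjusted p = 0.000106). *Sprr1b*, a cornified envelope precursor of stressed epithelium, and *Krt42*, a type I keratin, were likewise lowest in wild-type P56 and higher in both nevus groups than in both wild-type groups. *Sprr1b* was at 8.92 and 10.7 FPKM in wild-type P30 and at 44.4 and 36.5 in mutant P56. *Krt42* was at 7.34 and 7.6 FPKM in wild-type P30 and at 28.2 and 29.5 in mutant P56. In wild-type P56 neither exceeded 3.47 FPKM, and in mutant P30 neither was below 35.7. *Sox13*, a SoxD transcription factor, rose by 2.03 ± 0.24 (adjusted p = 0.0113), from 3.86 and 4.89 FPKM to 23.5 and 18.5.

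A different set of higher genes was most abundant in the resting wild-type bulge. In 27 of the 53 higher genes both wild-type P56 libraries lay above both mutant P56 libraries, in 24 below them, and in 2 they overlapped. Over all 11434 genes, the wild-type P56 libraries lay above in 31.1% and below in 27.2%, and these counts share the mutant P56 libraries with the test. The first set included *Myoc*, *Akr1c18*, *Cck*, *S100a4* and *Col6a1*, and mutant P56 bulge held them at a small part of their telogen level.

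*Myoc*, which encodes the secreted glycoprotein myocilin, was at 1.57 and 1.04 FPKM in wild-type P30, 13.2 and 20.9 in mutant P56, and 194 and 254 in wild-type P56. *Akr1c18*, a steroid-metabolizing aldo-keto reductase, was at 1.43 and 1.96, then 17.2 and 17, then 426 and 235 FPKM in the same groups. *Cck*, the cholecystokinin precursor, was at 0.32 and 0.29, then 4.22 and 6.33, then 242 and 186 FPKM. Mutant P56 lay between the wild-type groups in each, and mutant P30 stayed at the level of wild-type P30, at 1.77 FPKM or less. The log2 changes from wild-type P30 were 2.94 ± 0.27 for *Myoc* (limma adjusted p = 0.00265), 2.75 ± 0.29 for *Akr1c18* (adjusted p = 0.00652) and 2.24 ± 0.24 for *Cck* (adjusted p = 0.00652). Against wild-type P56 the same genes were lower by test, at -3.66, -4.13 and -5.11 (adjusted p = 0.00011, 0.000106 and 0.000102). For comparison, 11.4% of the 11434 genes passed between mutant P56 and wild-type P56, and 0.691% between the genotypes at P30.

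*S100a4*, a calcium-binding protein abundant in resting bulge cells here, was at 48.3 and 43.1 FPKM in wild-type P30, 166 and 290 in mutant P56, and 3689 and 6246 in wild-type P56. Its log2 change from wild-type P30 was 2.24 ± 0.30 (limma adjusted p = 0.0208). *Emp3*, a small tetraspan membrane protein, rose by 2.44 ± 0.24 (adjusted p = 0.00468), from 1.8 and 1.63 FPKM to 11.4 and 16.4. It was also high in mutant P30 (19.4 and 24.2 FPKM) and in wild-type P56 (35.9 and 27.4), which left wild-type P30 as the lowest of the 4 groups. *Gm13306*, a near copy of the chemokine gene *Ccl27a*, was at 2659 and 2569 FPKM in wild-type P30, 5246 and 6710 in mutant P56, and 22708 and 22894 in wild-type P56. Reads of the copies could be split between them, so the value of either is uncertain, and *Ccl27a* itself changed by 0.91 ± 0.15 (adjusted p = 0.0417), short of the 2-fold limit.

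**Figure D2:**
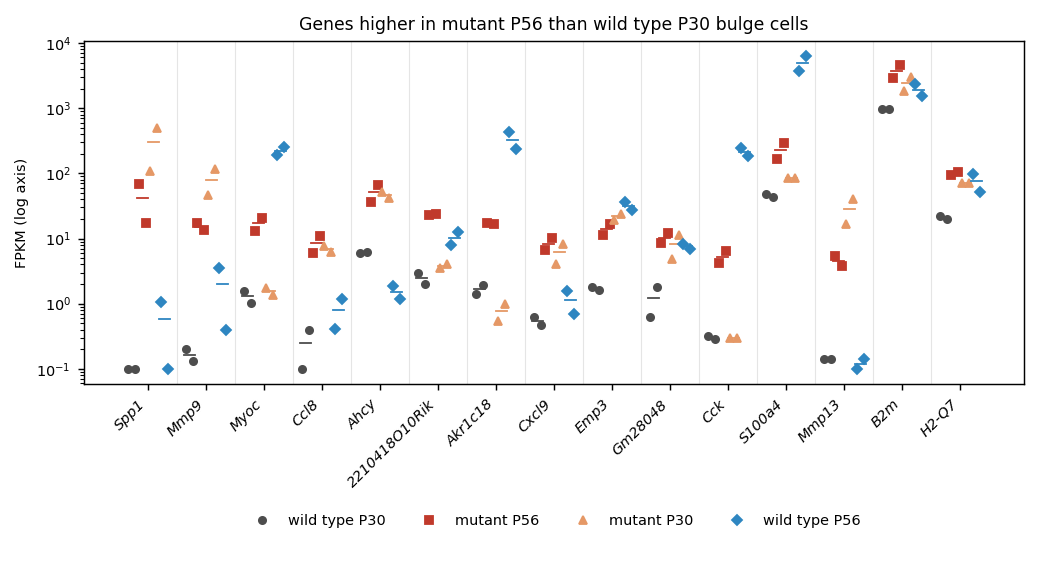
FPKM (log axis) of the 12 genes with the largest rise by the naming rule, and of *Mmp13*, *B2m* and *H2-Q7*, in each of the 8 bulge libraries; symbols give the group, points are libraries and short bars the mean of 2. *Spp1*, *Mmp9*, *Ccl8*, *Ahcy* and *Cxcl9* are high in both mutant groups, whereas *Myoc*, *Akr1c18*, *Cck* and *S100a4* are highest in wild-type P56 (*Cck* at 242 and 186 FPKM).

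Genes tied to stem cell quiescence were described next. The study named 9 such genes from these same samples, so the list is not independent evidence of its direction. Of its 8 measured genes all had a positive change, the median was 1.18, and 1 was called. That gene was *Wif1*, a secreted WNT inhibitor, at 1.56 and 1.55 FPKM in wild-type P30 and at 6.47 and 5.13 in mutant P56 (log2 change 1.41 ± 0.24, limma adjusted p = 0.0406). It was at 9.34 and 7.4 FPKM in mutant P30 and at 17.1 and 12.3 in wild-type P56. The call was lost with only the 4 libraries (adjusted p = 0.0653), with a pseudocount of 5 (adjusted p = 0.1), and in each of the 4 fits without 1 compared library (adjusted p = 0.085 to 0.349). *Nfatc1*, a transcriptional regulator of stem cell quiescence, was at 2.83 and 4.16 FPKM in wild-type P30, 14.4 and 5.72 in mutant P56, and 55 and 81.9 in wild-type P56. *Fgf18*, a ligand that prolongs telogen, was at 0.89 and 0.86 FPKM in wild-type P30, 6.53 and 2.11 in mutant P56, and 40.5 and 87.6 in wild-type P56. Mutant P56 was above anagen and far below telogen in both genes, but its 2 libraries differed widely, and neither change passed (1.19 ± 0.38 with adjusted p = 0.19, and 1.37 ± 0.45 with adjusted p = 0.202).

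The bulge stem cell markers as a whole were not called: 0 of 20 passed, 16 had a positive change, and the median was 0.52. *Cd34*, the surface protein used in the sort, was at 38.2 and 34.9 FPKM in wild-type P30 and at 59.7 and 112 in mutant P56, against 465 and 906 in wild-type P56. *Krt15*, a bulge keratin, was at 2254 and 2248 FPKM in wild-type P30, 3581 and 4250 in mutant P56, and 12592 and 18542 in wild-type P56. Both nevus P56 libraries exceeded both anagen libraries in both genes, and limma did not call either (*Cd34* 1.14 ± 0.35 with adjusted p = 0.178, *Krt15* 0.79 ± 0.20 with adjusted p = 0.106). Against telogen bulge both were lower, by -2.97 and -1.97 (adjusted p = 0.000897 and 0.000399). *Krt14* changed by -0.15 and *Krt17*, a keratin of the outer root sheath, by 0.06.

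No gene of the mitosis and DNA replication lists passed the test between the nevus bulge at P56 and the anagen bulge. *Mki67*, the Ki-67 proliferation antigen, was at 11.5 and 10.4 FPKM in wild-type P30 and at 11.9 and 8.24 in mutant P56, with overlapping groups and a log2 change of -0.13 ± 0.34 (limma adjusted p = 0.899). In wild-type P56 it was at 5.73 and 2.27 FPKM, and the change against that group was 1.22 (adjusted p = 0.041). None of 30 mitosis genes and none of 27 DNA replication genes was called, with medians of -0.08 and -0.30. The change was positive in 7 of the 30 and 2 of the 27, against 61.9% of all genes. Mitosis genes summed to 908 FPKM in mutant P56 replicate 1 and to 495 in replicate 2, on either side of the wild-type P30 sums of 774 and 734. Of 13 cell cycle inhibitors none passed. *Cdkn2b*, which encodes the CDK inhibitor p15, was at 19.8 FPKM in both wild-type P30 libraries and at 49.8 and 28.3 in mutant P56 (0.89 ± 0.26, adjusted p = 0.157). *Nras* itself changed by -0.22 ± 0.17 (adjusted p = 0.59).

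The falls were led, among genes with a clear identity, by *Pdk4*, *Cldn4* and *Has1*. *Pdk4* (chr6:5483351-5496309, minus strand), a kinase that inactivates pyruvate dehydrogenase, was at 54 and 56.8 FPKM in wild-type P30 and at 7.05 and 6.21 in mutant P56. It fell by 2.89 on the log2 scale (SE 0.25, limma adjusted p = 0.00265), a ratio of means of 8.35. It was at 22.4 and 38.3 FPKM in wild-type P56 and at 21.7 and 17.5 in mutant P30, so mutant P56 was the lowest of the 4 groups. Against wild-type P56 it was lower by -1.99 (adjusted p = 0.00126), and between the genotypes at P30 by -1.46 (adjusted p = 0.0439). *Guca2a*, the precursor of the peptide guanylin, and *Tmem158*, a RAS-induced membrane protein, were also lower in mutant P56 than in all 6 other libraries. *Guca2a* was at 13.4 and 10.3 FPKM in wild-type P30 and at 2.87 and 3.57 in mutant P56 (-1.6 ± 0.23, limma adjusted p = 0.0236). *Tmem158* was at 19.1 and 18.9 against 7.69 and 6.44 (-1.31 ± 0.21, adjusted p = 0.0358).

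*Cldn4* (chr5:134945119-134946934, minus strand), a tight junction claudin, was at 62.6 and 67.1 FPKM in wild-type P30 and at 11.2 and 7.24 in mutant P56. Its fall of 2.72 (SE 0.22, limma adjusted p = 0.00154) had the smallest adjusted p of all 84 genes. Wild-type P56 was as low, at 10.3 and 8.84 FPKM, and mutant P30 was between, at 41 and 37.6. *Cldn3* fell by 1.31 (SE 0.22, adjusted p = 0.0414), from 10.1 and 9.08 FPKM to 3.18 and 3.37, and was listed at 0.1 in both wild-type P56 libraries. Of 6 measured claudins, a list assembled after these 2 were seen, the other 4 did not pass, and the median was -0.21. *Has1*, a hyaluronan synthase, was at 24.1 and 22.3 FPKM in wild-type P30, 5.11 and 2.11 in mutant P56, and 3.57 and 3.63 in wild-type P56, and fell by 2.47 (SE 0.30, adjusted p = 0.0113). For *Cldn4* and *Has1* the 2 groups at P56 lay close together, whatever the genotype (differences of -0.07 and -0.08, adjusted p = 0.862 and 0.89).

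Inner root sheath keratins mark the differentiated layer that moulds the growing hair, and the 3 that were called were about 3-fold below anagen. *Krt71* (chr15:101733949-101743109, minus strand) was at 306 and 294 FPKM in wild-type P30 and at 115 and 76 in mutant P56, and fell by 1.67 (SE 0.28, limma adjusted p = 0.0411). *Krt27* was at 83.9 and 76.3 FPKM in wild-type P30 and at 24.7 and 19.9 in mutant P56, and fell by 1.81 (SE 0.26, adjusted p = 0.0261). *Krt25* was at 125 and 124 FPKM in wild-type P30 and at 52.6 and 33.8 in mutant P56, and fell by 1.54 (SE 0.27, adjusted p = 0.0462). The ratios of the means were 3.13, 3.59 and 2.87. In wild-type P56 none of the 3 exceeded 2.56 FPKM, and mutant P56 was above that group by 5.05, 3.83 and 4.43 (adjusted p = 0.000102, 0.000106 and 0.000102). On the log2 scale the nevus bulge at P56 lay between anagen and telogen in these transcripts, and nearer to anagen. In FPKM it lay nearer to telogen. *Krt71* means were 299.8 in wild-type P30, 95.7 in mutant P56 and 1.92 in wild-type P56. Whether a mixture of anagen and telogen follicles gave these levels was not tested.

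Of 17 measured genes of the inner root sheath and hair shaft, 3 were called lower and 0 higher, and the median change was -0.91. In 14 of the 17 both mutant P56 libraries lay below both wild-type P30 libraries, against 17.3% of all genes. In 2 they lay above, against 36.4%. Not all members followed. *Gjb2*, which encodes connexin 26, was at 718 and 710 FPKM in wild-type P30 and at 683 and 1053 in mutant P56, with overlapping groups and a change of 0.25 ± 0.84 (limma adjusted p = 0.923). *Krt73*, another inner root sheath keratin, was at 4.63 and 4.79 FPKM in wild-type P30 and at 13.1 and 11.7 in mutant P56 (1.23 ± 0.30, adjusted p = 0.106). *Fgf5*, the growth factor that ends anagen, was at 68.1 and 57.5 FPKM in wild-type P30, 48.5 and 39.5 in mutant P56, and 0.84 and 0.41 in wild-type P56. Its change from anagen did not pass (-0.51 ± 0.26, adjusted p = 0.391), whereas mutant P56 exceeded wild-type P56 by 4.80 (adjusted p = 0.000102).

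**Figure D3:**
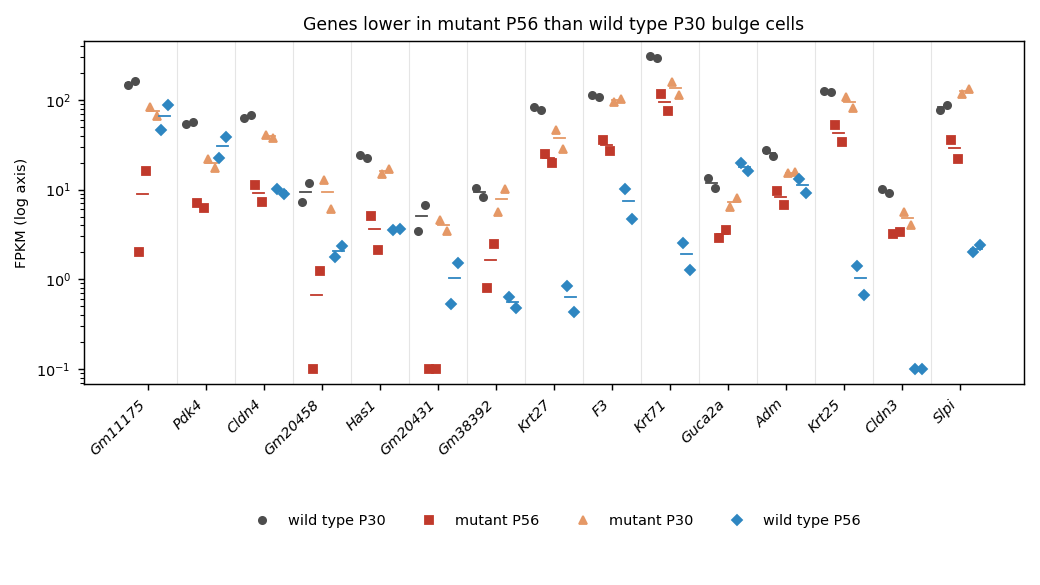
FPKM (log axis) of the 12 genes with the largest fall by the naming rule, and of *Krt25*, *Cldn3* and *Slpi*, in each of the 8 bulge libraries; symbols give the group, points are libraries and short bars the mean of 2. *Krt27*, *Krt71* and *Krt25* in mutant P56 lie below wild-type P30 and far above wild-type P56, while *Pdk4* and *Guca2a* are lowest in mutant P56 (*Pdk4* at 7.05 and 6.21 FPKM).

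Other falls included *F3*, *Adm*, *Slpi* and *Cebpb*. *F3*, the tissue factor that starts blood coagulation, was at 113 and 108 FPKM in wild-type P30, 35.6 and 27 in mutant P56, and 10 and 4.7 in wild-type P56, and fell by 1.80 (SE 0.29, limma adjusted p = 0.0375). *Adm*, the vasodilator peptide adrenomedullin, fell by 1.54 (SE 0.23, adjusted p = 0.0293), from 27.4 and 23.9 FPKM to 9.73 and 6.75. *Slpi*, a leukocyte protease inhibitor, was at 77.3 and 87.7 FPKM in wild-type P30 and at 35.8 and 22 in mutant P56, but at 1.99 and 2.4 in wild-type P56. *Cebpb*, a transcription factor of keratinocyte differentiation and inflammation, fell by 1.45 (SE 0.23, adjusted p = 0.0352), from 228 and 261 FPKM to 107 and 73.8. In each of these genes mutant P30 stayed at 15.3 FPKM or more and above both mutant P56 libraries.

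Some called genes share sequence with other transcripts, and their values are uncertain. The largest fall, *Gm11175* (-4.44 ± 0.66, limma adjusted p = 0.0277), went from 146 and 162 FPKM to 2.02 and 15.9. It lies opposite *Jund*, an AP-1 subunit gene that itself changed by -0.97 (adjusted p = 0.116), and the annotation used here classes it as an antisense transcript. The Smart-seq2 preparation does not mark strand, so reads of the pair cannot be told apart. *Gm7008*, lower by -1.54 (adjusted p = 0.0226), lies in the same way opposite *Ifrd1*, which changed by -1.54 (adjusted p = 0.0588). Of the 84 called genes, 11 overlap another protein-coding gene on the same strand and 23 overlap one on either strand. *Gm28048* (higher) spans *B3gnt2* and *Commd1*, and the lower genes *Gm20458*, *Gm20431* and *Gm38392* span *Sys1* with *Dbndd2*, *Ube2v1* with *Tmem189*, and *Rhbg* with *Tsacc*. None of those 8 genes was called. *2210418O10Rik*, higher by 2.81 ± 0.25 (adjusted p = 0.00265), went from 2.94 and 2 FPKM to 22.7 and 23.4 and has no overlapping coding gene, though it lies in a cluster of related zinc finger genes on chromosome 2 whose reads could be shared.

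Extracellular matrix genes were positive as a group with 1 call. All 16 measured collagens had a positive change, the median was 0.77, and *Col6a1*, a chain of the microfibrillar collagen VI, was called (1.99 ± 0.27, limma adjusted p = 0.0208). It was at 1.9 and 2.1 FPKM in wild-type P30, 11.4 and 10.5 in mutant P56, and 96.3 and 129 in wild-type P56. *Col3a1*, a fibrillar collagen typical of dermis, was at 6.16 and 6.89 FPKM in wild-type P30, 17.9 and 22.8 in mutant P56, 115 and 131 in mutant P30, and 1.32 and 3.04 in wild-type P56 (1.5 ± 0.27, adjusted p = 0.0526). Of the fibroblast markers 0 of 8 measured were called, and their median was 1.27. The list of 12, which includes *Col3a1*, summed to 146 and 142 FPKM in wild-type P30 and to 192 and 132 in mutant P56. It summed to 509 and 657 FPKM in mutant P30, and to 79.8 and 71.3 in wild-type P56, the group in which *Col6a1* was highest. *Dcn*, a defining fibroblast gene, was at 96.9 and 91.8 FPKM in wild-type P30 and at 100 and 47.1 in mutant P56. The part of fibroblast RNA in the matrix results was not tested. Of 14 matrix glycoproteins and 7 protease inhibitors none was called, with medians of 0.55 and 0.34.

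Markers of other cells that a bulge sort could carry were summed in each library. Myeloid markers, 5 of 14 measured, summed to 11.3 and 15.7 FPKM in wild-type P30 and to 15.1 and 26 in mutant P56, with *Lyz2* at 0.97 and 1.01 against 1.87 and 7.42. T cell markers summed to 7.81 FPKM or less in all 4 libraries. Melanocyte markers summed to 13.3 and 12.6 FPKM in wild-type P30 and to 25.8 and 30.1 in mutant P56. *Dct*, a melanin synthesis enzyme, was at 5.6 and 5.34 FPKM against 8.2 and 11.9 (0.75 ± 0.22, limma adjusted p = 0.153), and *Tyr*, whose promoter drives the transgene, did not exceed 0.45 FPKM in these libraries. All 5 measured melanocyte genes were higher in both mutant P56 libraries than in both wild-type P30 libraries, against 36.4% of all genes. None was called. Antigen presentation genes of class II summed to 64.7 and 60.5 FPKM against 113 and 187. In wild-type P56 the myeloid, melanocyte and class II lists summed to 50.8 and 24.9, 47.1 and 61.8, and 850 and 119 FPKM. In mutant P30 these lists summed to 21.5 and 15.8, 21.9 and 23, and 49 and 38.6 FPKM. The part of such cells, fibroblasts included, in the *Spp1*, metalloproteinase, chemokine and class I results was not tested. No gene was called on the endothelial, mural, Schwann, adipocyte, red blood cell, sebaceous or interfollicular epidermis lists. Immediate early genes, which respond to tissue dissociation, had a median of -0.36 with 0 of 14 called and 0 positive.

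Of the signalling pathways of the hair cycle, 1 gene passed the test. None of 9 WNT ligands, 16 WNT receptors and targets, 12 BMP and TGF-beta ligands, 10 BMP antagonists and targets, 12 FGF pathway genes, 7 hedgehog genes and 12 Notch genes was called. Their medians were -0.37, 0.18, 0.09, -0.45, 0.36, 0.57 and 0.16. Of 6 WNT antagonists *Wif1* was called, and the median was 0.75. *Id3* and *Id1*, inhibitors of helix-loop-helix factors and targets of BMP signalling, were below wild-type P30 in both mutant libraries. *Id3* was at 912 and 830 FPKM in wild-type P30 and at 541 and 315 in mutant P56 (-1.07 ± 0.23, limma adjusted p = 0.0781), and *Id1* was at 504 and 455 against 366 and 242 (-0.68 ± 0.20, adjusted p = 0.164). Neither passed. Of 24 secreted factors of senescence, *Spp1*, *Ccl8* and *Mmp13* were called higher, while the median of the list was -0.12 and 9 of the 24 were positive. The 18 circadian clock genes, 7 inner bulge and companion layer genes and 11 hair germ and matrix genes had no call, with medians of -0.06, 0.18 and 0.05.

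**Figure D4:**
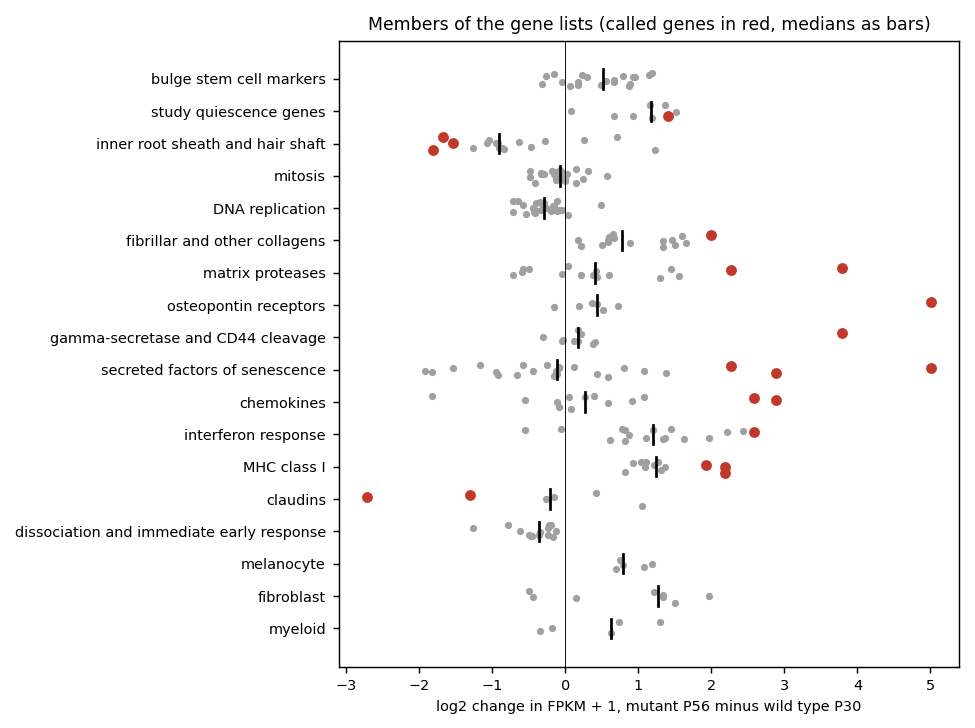
Log2 change in FPKM + 1 (mutant P56 minus wild-type P30, horizontal axis) of every measured gene in 18 gene lists (vertical axis); each point is a gene, red points passed the test, vertical bars are list medians, and vertical scatter within a list has no meaning. Medians of 1.24 for MHC class I and -0.91 for inner root sheath and hair shaft compare with 0.097 over all genes. The MHC class I and claudin lists were assembled after values were seen, so their medians are descriptions.

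The 31 lower genes were also placed against the telogen bulge. In 12 of them both wild-type P56 libraries were lower still than both mutant P56 libraries, including *Krt25*, *Krt27*, *Krt71*, *F3*, *Slpi* and *Cldn3*. In 9 they were higher than both, including *Pdk4*, *Guca2a* and *Tmem158*, and in 10 they overlapped, including *Cldn4*, *Has1*, *Rhob* and *Cebpb*. The shares over all 11434 genes were 27.2% below and 31.1% above, so the 9 are near the background. These counts describe levels and share the mutant P56 libraries with the test. Just inside the limit stood *Npnt* (1.43, adjusted p = 0.0485) and *Krtap13-1* (-1.54, adjusted p = 0.0475), and just outside it *E330009J07Rik* (1.19, limma adjusted p = 0.0517) and *Krtap3-3* (-1.26, adjusted p = 0.0518).

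**Figure D5:**
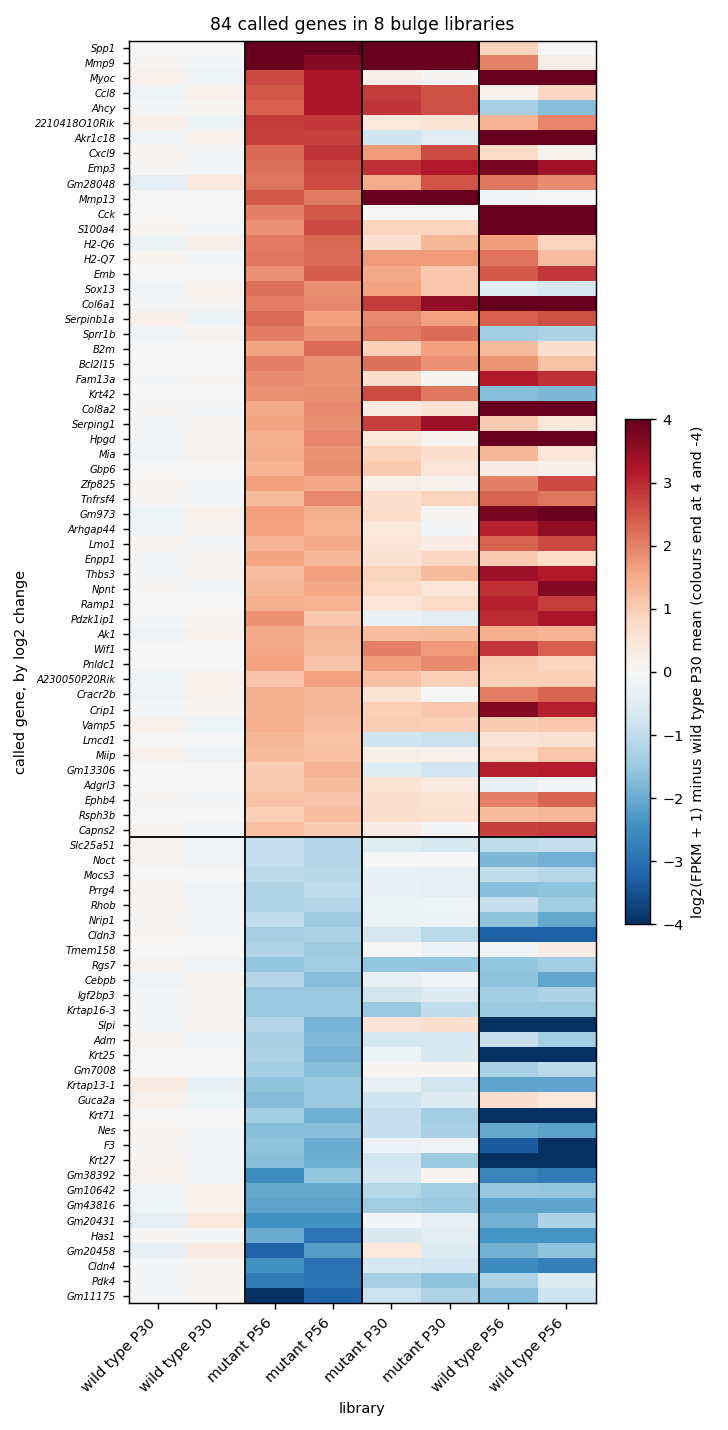
Log2(FPKM + 1) of the 84 called genes (rows, ordered by log2 change, 53 higher above the line and 31 lower below it) in 8 bulge libraries (columns), shown as the difference from the wild-type P30 mean; red is higher, blue is lower, and colours end at 4 and -4. Rows such as *Spp1* and *Krt42* are red in both mutant groups, and rows such as *Myoc* and *Cck* are darkest in wild-type P56.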

How the data were processed

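Bulge cells were profiled by Smart-seq2 RNA sequencing. The authors aligned paired 43-base reads with STAR 2.4.2a (the submitters' processing notes list STAR 2.4.2) to mm10 with GENCODE vM8 and deposited 1 table of FPKM values from RSEM, with 0.1 as its lowest value. No counts were used here. No whole-read steps were found among FPKM values of 0.2 to 1.5 (the fullest 0.02-wide log2 bin held 1.59% to 4.68% of genes). The depth of each library is therefore unknown, beyond the range of average depth that the study's methods give.

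Genes at 1 FPKM in at least 2 of 8 libraries were fitted with limma 3.58.1 (R 4.3.3) on log2(FPKM + 1), 1 mean per group, variance trend and Benjamini-Hochberg adjustment. The study's count test could not be run on FPKM. The code was tested on simulated data. The labels do not state whether replicate libraries are different animals. The study's methods call its sorted-cell RNA replicates biological, and the p-values reflect variation between these libraries. An exact permutation of 2 against 2 cannot go below 0.333. Positions come from GENCODE vM21 (GRCm38).

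Members, the 39 gene lists and the naming rule (the 12 largest rises and 12 largest falls among called genes at 5 FPKM or more whose groups did not overlap, up to 4 called genes a list or else the 2 most abundant, and 15 set genes) were chosen with earlier results of these data known. The 3 lists of class I, peptide loading and claudin genes, and genes named outside the rule, were chosen after their values were seen.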

Additional observations from a re-analysis of the deposited data

Results flagged for a closer look

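Transcripts of X and Y, which were left out of the comparison, differed between the same libraries and were flagged as a signal outside the genes reported. *Xist*, the RNA of the inactive X, was at 0.1 and 0.12 FPKM in wild-type P30, 38.4 and 38 in mutant P56, 0.14 and 0.33 in mutant P30, and 30.2 and 24.9 in wild-type P56, a log2 change of 5.14 between the groups compared (limma adjusted p = 2.8e-05). The Y-linked genes *Ddx3y* and *Eif2s3y* changed by -4.09 and -4.94, from 18.5 and 17.1 FPKM and 32.2 and 33.3 FPKM in wild-type P30 to 0.1 in both mutant P56 libraries. Both P56 groups had the one pattern and both P30 groups the other, so the sex of the animals and their age cannot be told apart in any comparison across ages, whereas the genotypes at 1 age matched in these transcripts. Groups of 2 libraries were not tested for outliers.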

How the results depend on the processing

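Values are counts of genes called higher and lower, 53 and 31 as reported. With the replicate number as a replicate block they were 65 and 44. Replicate-1 deviations of mutant P56 and wild-type P30 correlated at r = 0.023, so the numbers were not taken to pair the libraries. With only the 4 libraries compared they were 23 and 12, with no filter on low values 20 and 12, and with a pseudocount of 5 FPKM 29 and 22. Rescaled libraries gave 46 and 50 and moved the median change from 0.097 to 0.013. Chosen after seeing the data, leaving out both wild-type P56 libraries gave 111 and 83, and both mutant P30 libraries 19 and 6. Leaving out 1 library gave 2 to 116 higher and 2 to 82 lower genes. A lone library is then assumed to vary like the other groups. A pseudocount of 0.1 (62 and 23), a minimum of 5 FPKM (54 and 32), no variance trend (58 and 35) and the adjusted p alone (56 and 31) stayed within 1.5 times. Most of the 32 named called genes lost the call when either wild-type P30 replicate was left out. None changed direction under any alternative run. Except under rescaling this could not happen, because the groups did not overlap for any called gene, so it says nothing about stability. Unadjusted p was under 0.05 for 1308 higher and 538 lower genes. The cause of these shifts was not tested.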

Other observations

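Called genes were spread over the chromosomes. Chromosome 2 held 12 of its 926 measured genes (1.30%) and chromosome 3 held 9 of 570 (1.58%), against 0 of 396 on chromosome 14 and 0 of 414 on chromosome 19. On chromosome 2, 6 genes were higher, among them *Ahcy*, *B2m*, *Mmp9* and *2210418O10Rik*, and 6 were lower, among them *Slpi* and *Cebpb*. Of the 53 higher genes, 10 were under 1 FPKM in both wild-type P30 libraries. Of the 31 lower genes, 8 were under 1 FPKM in both mutant P56 libraries. Over all 11434 genes, 200 reached 1 FPKM only in both mutant P56 libraries and 113 only in both wild-type P30 libraries. Such genes entered the comparison only through the group in which they were high.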
